A study of Homo sapiens with 8 samples.

Results

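The genes described here encode 8 enzymes that remove superoxide and peroxides: the superoxide dismutases SOD1 and SOD2, catalase (CAT), the glutathione peroxidases GPX1 and GPX4, and the peroxiredoxins PRDX1, PRDX3 and PRDX5. They were taken by symbol from the 26485 genes in the tables of 8 RNA libraries, and the set was chosen because earlier results of the same libraries showed SOD2 higher after house dust mite (HDM) extract than after PBS. Member values are therefore given as a description, and nothing is read from whether a member passed a test. The libraries came from BEAS-2B, an immortalised human bronchial epithelial cell line, treated with control siRNA or with siRNA labelled as directed against LY96, which encodes MD-2, the lipopolysaccharide-binding partner of the receptor TLR4. The BEGM growth medium was replaced by BEBM 24 h before PBS or HDM extract, an allergen mixture, was added, and cells were harvested 24 h later. The 4 groups were control siRNA with PBS (1 library), control siRNA with HDM (3 libraries), LY96 siRNA with PBS (1 library) and LY96 siRNA with HDM (3 libraries). The dose of HDM extract and the sequence of either siRNA were not given in the sources used here.

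Superoxide is an oxygen radical released by the respiratory chain and by NADPH oxidases. Superoxide dismutases turn it into hydrogen peroxide, SOD1 with copper and zinc mainly in the cytosol and SOD2 with manganese in the mitochondrial matrix. The peroxide is then removed by catalase in peroxisomes, by glutathione peroxidases, which draw on glutathione, and by peroxiredoxins, which draw on thioredoxin. In airway epithelium, SOD2 is known as a target of the inflammatory transcription factor NF-kB, and several thioredoxin and glutathione genes are known targets of the oxidant-sensing factor NRF2.

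The promoters of SOD2 and CAT are shown because SOD2 had the widest range over the libraries and CAT the narrowest range and the lowest level of the 8 genes. Promoter windows of 250 bases before a transcript start were found for 6 of the 8 members, in the RefSeq annotation of GRCh38.p14. SOD1 and PRDX1 had none in that table. The windows below are chr6:159693242-159693491 on the minus strand for SOD2, which has 4 listed starts, and chr11:34438684-34438933 on the plus strand for CAT. Capitals mark the GC box GGGCGG, searched on both strands, and neighbouring GC boxes in the SOD2 window share bases.
SOD2: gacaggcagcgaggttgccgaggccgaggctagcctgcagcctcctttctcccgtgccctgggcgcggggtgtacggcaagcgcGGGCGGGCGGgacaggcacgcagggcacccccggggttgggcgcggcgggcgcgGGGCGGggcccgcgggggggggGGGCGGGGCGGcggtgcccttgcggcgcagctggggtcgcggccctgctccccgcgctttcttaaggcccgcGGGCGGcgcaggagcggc
CAT: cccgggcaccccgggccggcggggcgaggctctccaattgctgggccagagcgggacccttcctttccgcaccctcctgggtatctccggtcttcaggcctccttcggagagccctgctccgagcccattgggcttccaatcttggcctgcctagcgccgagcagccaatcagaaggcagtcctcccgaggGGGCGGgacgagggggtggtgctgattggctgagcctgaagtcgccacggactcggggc
The SOD2 window held 6 GC boxes and was 80.8% G and C, and the CAT window held 1 GC box and was 68.8% G and C. The printed SOD2 window had the most GC boxes of those of SOD2. The others held 4, 1 and 1 and were 78.4%, 71.2% and 68% G and C, so 6 against 1 does not hold for every SOD2 start. The 6 matched members had 12 windows, from 60.4% to 80.8% G and C beside a median of 58% over the 35116 promoter windows of that length in the table. A GC box, itself made of G and C, was in 12 of the 12 member windows, from 6 of the 6 genes, and in 42.6% of all windows. Windows of the same gene can share bases, as some of GPX4 and PRDX5 do, so the 12 are not independent. CCAAT was in 5 of the 12, from 3 of the 6 genes (SOD2, CAT and GPX4), and in 32.0% of all windows. TATAAA was in 0 of the 12 and in 10.7% of all windows. The NF-kB consensus motif was in 0 of the 12 and in 9.96% of all windows, and the antioxidant response element core TGACNNNGC in 0 of the 12 and in 10.9%. A window without a motif says only that those letters are not in those 250 bases.

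The libraries had FPKM totals from 329777 to 340328, where FPKM counts fragments per kilobase of transcript, scaled to the mapped fragments of the library. Levels of different genes can thus be compared per length, but read depth is unknown. LY96 itself was listed at 0 FPKM in all 8 libraries, so its depletion could not be checked and the groups are named by their labels. All 10 airway epithelial markers examined (keratins, CDH1, EPCAM, TP63 and ITGB4) had a mean of at least 1 FPKM, while 3 of 8 fibroblast markers did (THY1 at 14.6, PDGFRB at 11.5 and COL1A1 at 7.35 FPKM), as did 2 of 8 leukocyte markers (CD68 at 3.87 and S100A12 at 2.39) and 0 of 5 endothelial ones. The leukocyte markers PTPRC, CD3E, FCGR3A and MPO, the fibroblast markers DCN and LUM and the endothelial marker PECAM1 were at 0. Nothing in the labels tells whether replicate libraries are separate cultures, so p-values reflect only how far these libraries scatter, and that scatter may be technical. With 1 PBS library per siRNA, each test against PBS takes the unknown spread of PBS libraries to equal that among HDM libraries. In bulk RNA, fewer expressing cells and less RNA per cell cannot be told apart.

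SOD2 stood at 30.3 FPKM with control siRNA and PBS, at 75.2, 79.5 and 80.4 with control siRNA and HDM, at 32.5 with LY96 siRNA and PBS, and at 126, 127 and 134 with LY96 siRNA and HDM. Each HDM library lay above both PBS libraries, and each LY96 siRNA HDM library lay above each control siRNA HDM library. The mean with HDM was 2.59-fold the PBS value under control siRNA, 78.4 ± 2.79 FPKM (SD, n = 3), and 3.96-fold under LY96 siRNA, 129 ± 4.23 FPKM (SD, n = 3). On the log2(FPKM + 1) scale these differences were 1.34 ± 0.05 and 1.95 ± 0.05 (SE), and the mean of both was 1.65 ± 0.04. SOD2 with LY96 siRNA was 1.64-fold its level with control siRNA under HDM (log2 0.71 ± 0.04 SE), while the LY96 siRNA PBS library was at 1.07-fold the control siRNA PBS library. The HDM difference was larger with LY96 siRNA by 0.61 ± 0.08 (SE) on the log2 scale.

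**Figure D1:**
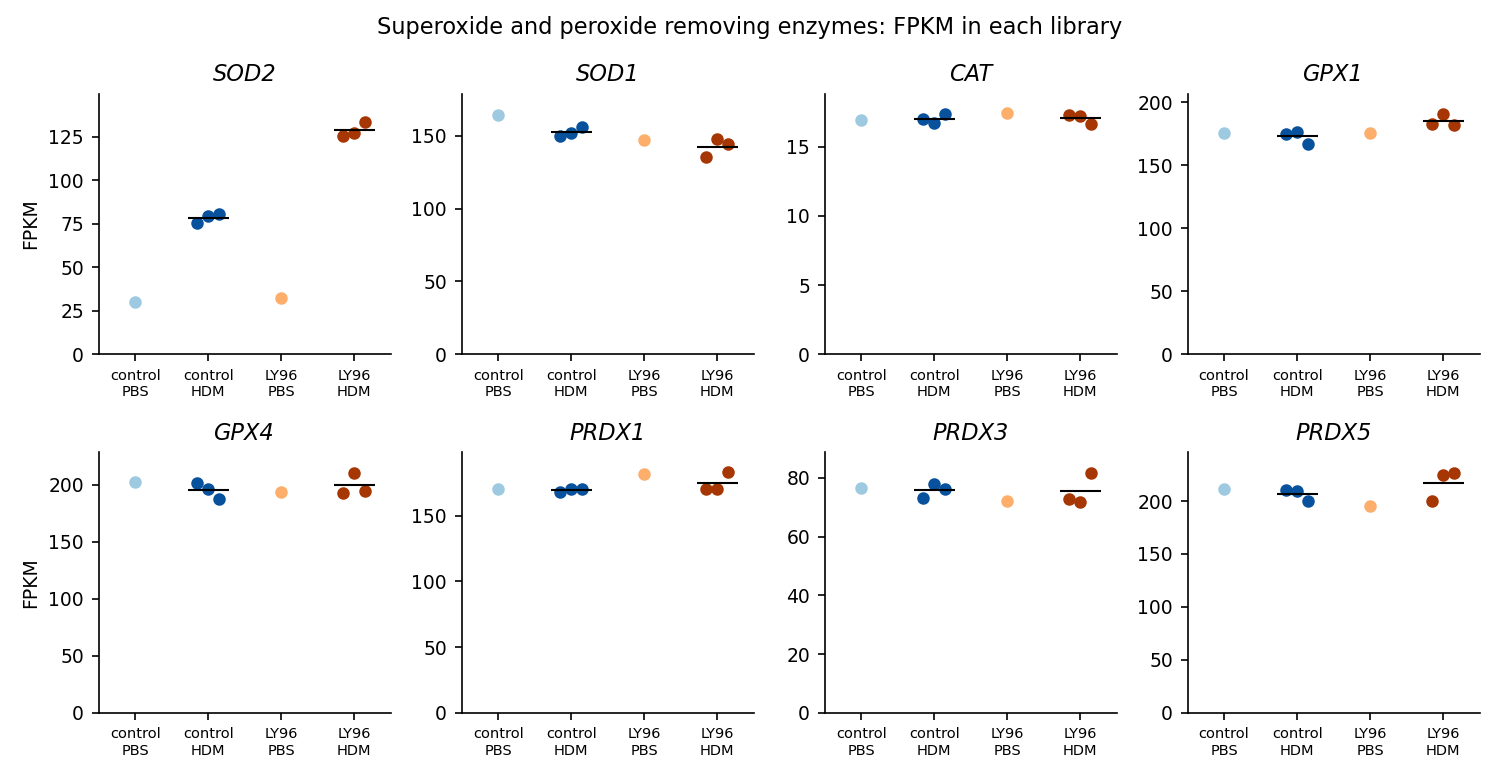
FPKM of each of the 8 enzymes (vertical axes, linear, each starting at 0) in the 4 groups, 1 point per library, with a line at the mean of each group of 3. SOD2 goes from 30.3 and 32.5 FPKM in the PBS libraries to between 75.2 and 134 with HDM, while the points of the other panels lie close together.

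SOD1, the cytosolic superoxide dismutase, stood at 164 FPKM with control siRNA and PBS, at 149.9, 152 and 156 with control siRNA and HDM, at 147 with LY96 siRNA and PBS, and at 135, 148 and 144 with LY96 siRNA and HDM. The control PBS library was the highest of the 8, and the HDM libraries of both siRNAs did not overlap, those with LY96 siRNA being lower. How many of all genes have siRNA groups that do not overlap was not counted, so nothing is read from this for any gene. The HDM difference was log2 -0.11 ± 0.05 (SE) with control siRNA and -0.05 ± 0.05 with LY96 siRNA, and the siRNA difference under HDM was -0.10 ± 0.04. The HDM difference with LY96 siRNA was smaller than its SE (-0.0451 beside 0.0515), and no direction opposite to SOD2 is read from these values. With the main setting included, SOD1 was called in 0 of 13 settings for either HDM difference and in 1 of 15 for the siRNA difference.

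CAT, the peroxisomal catalase, was the lowest of the 8 in every library. It stood at 16.9 FPKM with control siRNA and PBS, at 17.0, 16.7 and 17.4 with control siRNA and HDM, at 17.4 with LY96 siRNA and PBS, and at 17.3, 17.2 and 16.6 with LY96 siRNA and HDM. The 8 libraries spanned 16.6 to 17.4 FPKM, and the siRNA groups under HDM overlapped. The HDM difference was log2 0.01 ± 0.05 (SE) with control siRNA and -0.03 ± 0.05 with LY96 siRNA.

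GPX1, the cytosolic and mitochondrial glutathione peroxidase, is a selenoprotein. It stood at 176 FPKM with control siRNA and PBS, at 175, 177 and 167 with control siRNA and HDM, at 176 with LY96 siRNA and PBS, and at 182, 190.4 and 182 with LY96 siRNA and HDM. The 3 LY96 siRNA HDM libraries were the highest of the 8, and the siRNA groups under HDM did not overlap, from which nothing is read. GPX1 was called for the siRNA difference in 2 of 15 settings, the main one not among them. The siRNA difference under HDM was log2 0.10 ± 0.03 (SE), and the HDM difference was -0.03 ± 0.05 with control siRNA and 0.07 ± 0.05 with LY96 siRNA. GPX4, the selenoprotein that reduces lipid peroxides in membranes, stood at 202 FPKM with control siRNA and PBS, at 201, 196 and 188 with control siRNA and HDM, at 193 with LY96 siRNA and PBS, and at 193, 211 and 195 with LY96 siRNA and HDM. The siRNA groups overlapped, with a difference of log2 0.03 ± 0.04 (SE) under HDM.

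PRDX1, the main cytosolic peroxiredoxin, stood at 170.2 FPKM with control siRNA and PBS, at 168, 169.9 and 171 with control siRNA and HDM, at 182 with LY96 siRNA and PBS, and at 170.4, 170.1 and 183 with LY96 siRNA and HDM. LY96 siRNA HDM replicate 3 and the LY96 siRNA PBS library stood above the other 6, and the siRNA groups under HDM overlapped (log2 0.04 ± 0.03 SE). PRDX3, which shares the mitochondrial matrix with SOD2, stood at 76.7 FPKM with control siRNA and PBS, at 73.2, 78.1 and 76.3 with control siRNA and HDM, at 72.1 with LY96 siRNA and PBS, and at 72.8, 71.9 and 81.8 with LY96 siRNA and HDM. Its groups overlapped, with a siRNA difference under HDM of log2 -0.01 ± 0.05 (SE) and HDM differences of -0.02 ± 0.07 and 0.06 ± 0.07 with control and LY96 siRNA. PRDX5, found in mitochondria, peroxisomes and cytosol, stood at 212 FPKM with control siRNA and PBS, at 210.2, 209 and 199.8 with control siRNA and HDM, at 195 with LY96 siRNA and PBS, and at 199.8, 224 and 226 with LY96 siRNA and HDM. PRDX5 had the largest difference in HDM response among the 7 genes other than SOD2, log2 0.18 ± 0.10 (SE), and its siRNA groups under HDM overlapped. It was called in 1 of 15 settings for the siRNA difference and in 1 of 13 for HDM with LY96 siRNA.

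All 8 members passed the level needed for testing, a mean of at least 1 FPKM. With HDM over both siRNAs, 1 of the 8, SOD2, had an adjusted p below 0.05, as did 8.36% of all 12604 genes tested. The same 1 of 8 passed with control siRNA alone (2.28% of all genes), with LY96 siRNA alone (4.9%), for LY96 against control siRNA under HDM (15.6% of 12598 genes) and for the difference in HDM response (0.0555%). Since the set was chosen from these differences, nothing is read from the counts. Split by direction, 4.86% of all genes were called higher and 3.5% lower with HDM over both siRNAs, 1.55% and 0.738% with control siRNA alone, 2.91% and 1.98% with LY96 siRNA alone, and 6.68% and 8.92% for LY96 against control siRNA under HDM. Over both siRNAs the other 7 enzymes had HDM differences from log2 -0.08 (SOD1) to 0.06 (PRDX5), with a median of -0.01, and the median of all genes was 0.01. For LY96 against control siRNA under HDM they ran from log2 -0.10 (SOD1) to 0.10 (GPX1), with a median of 0.03, beside -0.02 for all genes. Counted down from the most positive log2 difference, SOD2 ranked 22nd of all genes tested for HDM over both siRNAs, 70th for LY96 against control siRNA under HDM and 137th for the difference in HDM response.

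**Figure D2:**
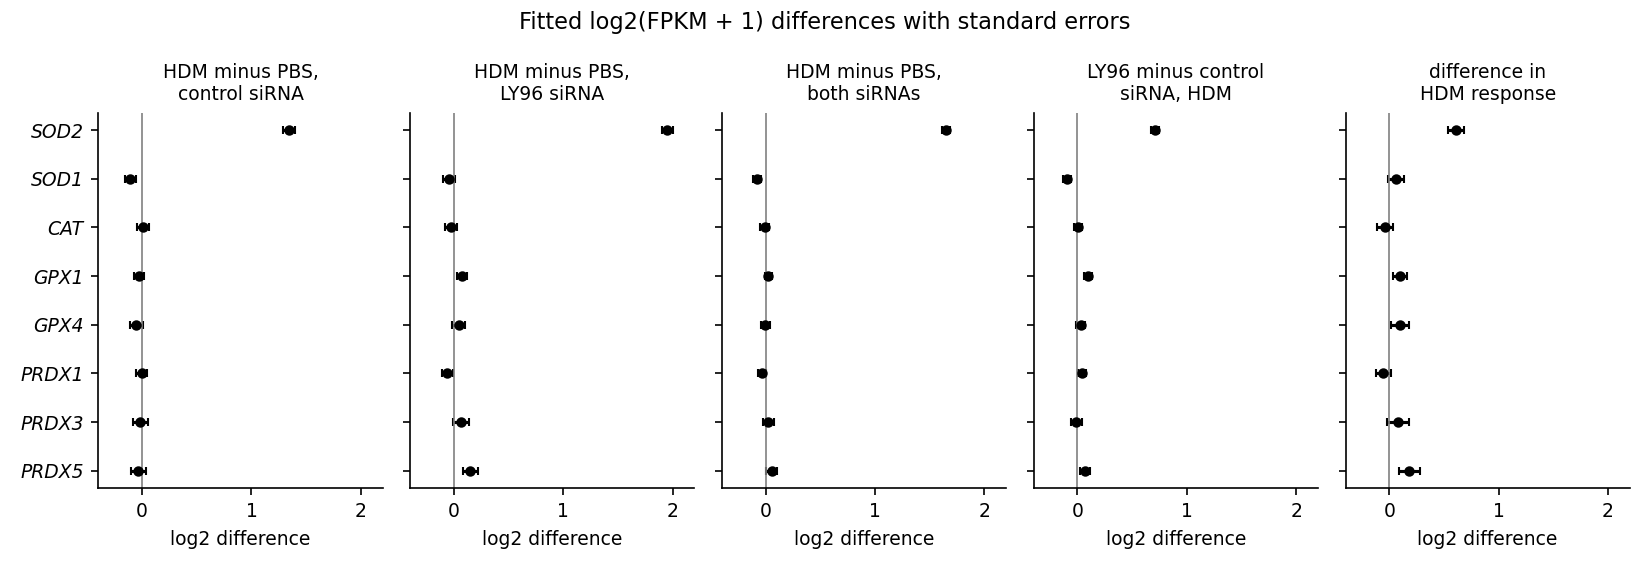
Fitted differences of log2(FPKM + 1) for the 8 enzymes in 5 comparisons (horizontal axis, log2), with bars of 1 standard error. SOD2 lies at 1.34, 1.95, 1.65, 0.71 and 0.61 from the left panel to the right, and the other 7 lie between -0.11 and 0.18.

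Set against the other enzymes within a library, SOD2 differed by 1 place in the order of levels between PBS and HDM and by none between the siRNAs. In every library PRDX5 was highest, GPX4 followed, SOD1 stood 5th and CAT last. SOD2 stood 7th in both PBS libraries, below PRDX3, and 6th in all 6 HDM libraries, above PRDX3. GPX1 and PRDX1 exchanged the 3rd and 4th place between libraries of the same group and did not differ beyond that spread. The ratio of SOD2 to PRDX3, both mitochondrial matrix enzymes, was 0.395 and 0.451 with PBS under control and LY96 siRNA. With HDM it was 1.03 ± 0.0182 under control siRNA and 1.71 ± 0.0690 under LY96 siRNA (SD, n = 3 each). The ratio of SOD2 to SOD1 was 0.185 with PBS and 0.502, 0.524 and 0.516 with HDM under control siRNA. It was 0.222 with PBS and 0.928, 0.862 and 0.928 with HDM under LY96 siRNA. The SOD2 level per length was thus far below the SOD1 level in both PBS libraries and close to it with HDM under LY96 siRNA.

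SOD2 made up 2.89% of the summed FPKM of the 8 enzymes with PBS and 7.34% ± 0.299 with HDM under control siRNA (SD, n = 3), and 3.21% and 11.3% ± 0.294 under LY96 siRNA (SD, n = 3). The 7 others summed to 1018 FPKM with PBS and 989 ± 12.8 with HDM under control siRNA, and to 982 and 1010 ± 34.4 under LY96 siRNA (SD, n = 3 each). In the LY96 siRNA HDM group that sum lay on both sides of its PBS library, while all 3 control siRNA HDM libraries, from 975 to 998, lay below theirs. Both dismutases together were at 195 FPKM with PBS and 231 ± 5.53 with HDM under control siRNA, and at 179 and 271 ± 8.88 under LY96 siRNA (SD, n = 3 each).

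**Figure D3:**
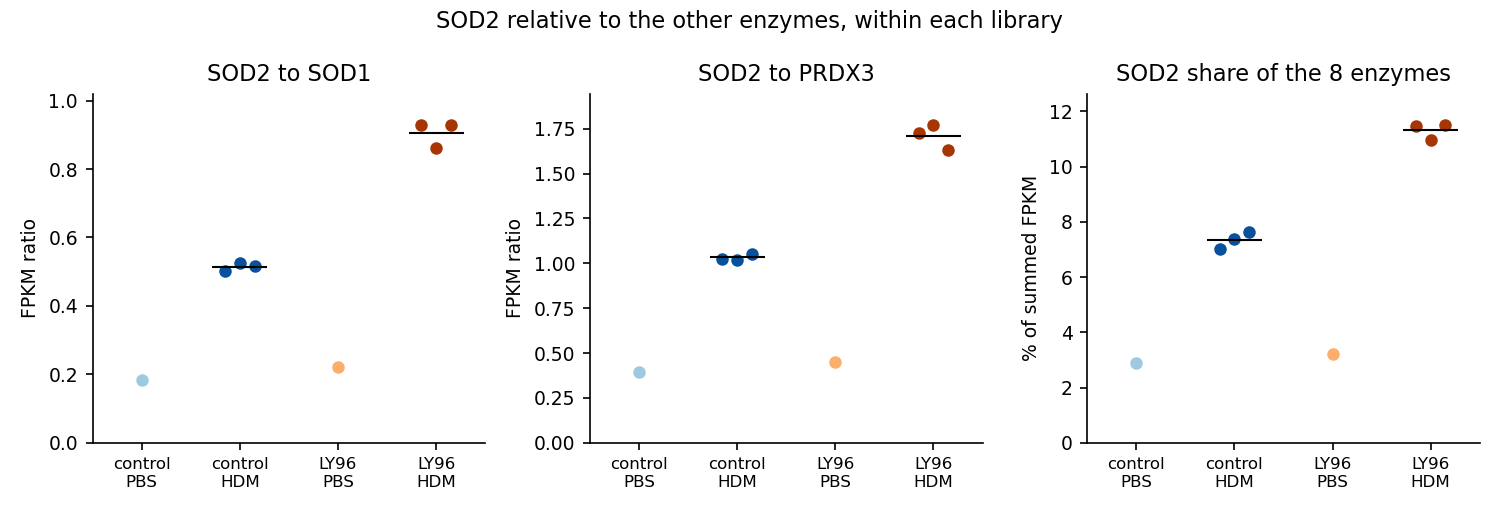
Ratio of SOD2 to SOD1 FPKM, ratio of SOD2 to PRDX3 FPKM, and SOD2 as a percentage of the summed FPKM of the 8 enzymes (vertical axes, from 0), 1 point per library with a line at the mean of each group of 3. In each panel the 4 groups keep the order control PBS, LY96 PBS, control HDM, LY96 HDM, without overlap.

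Ribosomal RNA made up 0.824%, 0.475% and 0.565% of all FPKM where control siRNA met HDM and 1.03%, 1.03% and 1.31% in the LY96 siRNA HDM libraries, the latter all higher, and 0.770% and 0.826% in the PBS libraries of control and LY96 siRNA. Its part in the siRNA differences was not tested. The summed leukocyte markers were at 4.86 and 4.21 FPKM in the PBS libraries of control and LY96 siRNA and at 6.06 to 7.40 and 6.68 to 7.23 with HDM, nearly all of it CD68 and S100A12. The summed fibroblast markers with HDM lay between 28.4 and 30.4 FPKM under control siRNA and between 33.0 and 38.8 under LY96 siRNA, beside 34.7 and 39.7 with PBS. Their part in the differences was not tested.

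The annotation bears on how far each value belongs to its gene. In GENCODE v29 on GRCh38, SOD2 lies on the minus strand of chromosome 6 under a pair of gene identifiers, at 159669057 to 159745186 and 159679119 to 159762529, and overlaps WTAP and, by the longer model, ACAT2 on the opposite strand. Genes it overlaps on its own strand, among them HNRNPH1P1 and SOD2-OT1, had no row in the tables. Which gene models the authors used, and whether their counting used strand, is not given in the sources used here. Reads from the overlaps thus cannot be told apart, and the GENCODE v29 models and copies need not be those behind these values. WTAP, a subunit of the RNA methylation complex, was at 41.9 FPKM with PBS and 42.1 ± 1.15 with HDM under control siRNA, and at 37.3 and 47.0 ± 1.22 under LY96 siRNA (SD, n = 3 each). ACAT2, a cytosolic thiolase, was at 112 and 125 ± 2.24 FPKM under control siRNA and at 119.6 and 133 ± 7.07 under LY96 siRNA (SD, n = 3 each). Under control siRNA the HDM difference of WTAP was log2 0.01 ± 0.05, and under LY96 siRNA it was 0.32 ± 0.05 (SE), beside 1.34 and 1.95 for SOD2, and its difference in HDM response was 0.32 ± 0.07 (SE), beside 0.61. WTAP thus had, like SOD2, the larger HDM difference with LY96 siRNA. For ACAT2 these differences were log2 0.16 ± 0.06 and 0.15 ± 0.06 (SE). SOD1 (chromosome 21, 31659622 to 31668931), GPX1 (chromosome 3, 49357171 to 49358600), PRDX1 (chromosome 1, 45511036 to 45523047) and PRDX3 (chromosome 10, 119167703 to 119178833) have 3, 2, 1 and 4 pseudogene copies in the annotation, and SOD2 has 1. None of these copies had a row in the tables, so how their reads were assigned is unknown. CAT (chromosome 11, 34438925 to 34472062), GPX4 (chromosome 19, 1103926 to 1106791) and PRDX5 (chromosome 11, 64318088 to 64321811) have no such copy and overlap no other gene. PRDX1 overlaps MMACHC, a vitamin B12 processing gene at a mean of 4.27 FPKM, on the opposite strand. SOD1 overlaps an antisense gene, AP000254.1, and a small nucleolar RNA gene, neither of which had a row in the tables.

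Of the 8896 genes averaging 5 FPKM or more, the 8 with the profile nearest to SOD2 were found by the root-mean-square difference of log2(FPKM + 1) over the 8 libraries, each gene centred on its own mean. The nearest was C1R, a protease of the complement cascade, at 0.12, from 30.7 and 34.1 FPKM with PBS to 76.3 ± 0.462 in the control siRNA HDM group and 110 ± 11.2 in the LY96 siRNA HDM group (SD, n = 3 each). CHI3L1, a secreted chitinase-like protein, and C1S, the complement protease paired with C1R, followed at 0.15 each. The transcribed pseudogene WFDC21P stood at 0.16 and the TNF-inducible gene TNFAIP2 at 0.16. NFKBIZ, a nuclear regulator of NF-kB, stood at 0.18, the NF-kB subunit gene RELB at 0.19 and the ribonuclease gene ZC3H12A at 0.19. The 7 other enzymes stood at 0.75 (PRDX5) to 0.83 (SOD1) from SOD2. These were places 1861 and 7639 among the 8896 genes, so such distances are common and no trait of these enzymes. These are descriptions over 8 libraries that share 1 cell line and 4 treatments.

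**Figure D4:**
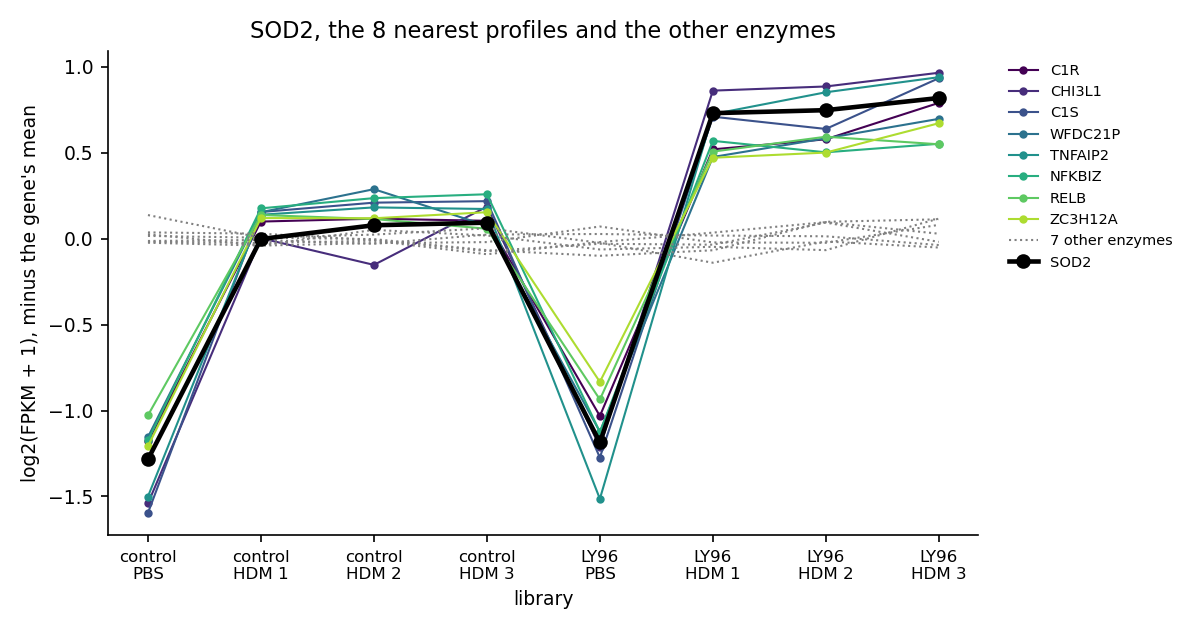
log2(FPKM + 1) minus each gene's own mean (vertical axis) in the 8 libraries (horizontal axis) for SOD2 in black, the 8 genes of nearest profile in colour and the 7 other enzymes as dotted lines. Lines join libraries to guide the eye, SOD2 and the coloured genes being lowest in the PBS libraries while the dotted lines stay near 0.

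Promoter windows were found for 5 of these 8 genes, and 1 of them, NFKBIZ, held the NF-kB consensus motif, in the windows of 2 of its starts. The 30 bases around each match are given here to set a window with the motif beside the SOD2 window without it. They lie on the plus strand at chr3:101827757-101827786 and chr3:101849265-101849294, with the motif in capitals.
NFKBIZ first start: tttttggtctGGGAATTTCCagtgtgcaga
NFKBIZ second start: gcgcgctgtcGGGGTTTCCCggtgaagggc
NFKBIZ was at 2.00 FPKM with PBS and 6.92 ± 0.231 with HDM under control siRNA, and at 2.11 and 8.87 ± 0.235 under LY96 siRNA (SD, n = 3 each). Its HDM difference was log2 1.40 ± 0.07 (SE) with control siRNA, close to the 1.34 of SOD2, and 1.67 ± 0.07 with LY96 siRNA, below the 1.95 of SOD2. The antioxidant response element core was found for 1 of the 5, TNFAIP2.

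Other enzymes of superoxide and peroxide removal numbered 11, of which 6 reached the level tested. The remaining 5, the secreted dismutase gene SOD3 and GPX2, GPX5, GPX6 and GPX7, were below a mean of 1 FPKM. With HDM over both siRNAs, 1 of the 6 rose, GPX8, an endoplasmic reticulum peroxidase, and 1 fell, GPX3, a secreted glutathione peroxidase. The median of the 6 was log2 0.05, beside 0.01 for all genes. GPX3 was at 26.7 FPKM with PBS and 19.1 ± 1.73 with HDM under control siRNA, and at 30.6 and 21.0 ± 1.52 under LY96 siRNA (SD, n = 3 each). Every HDM library thus lay below the PBS library of its siRNA, with a log2 difference of -0.50 ± 0.07 (SE, limma adjusted p = 0.00297). GPX8 was at 8.52 FPKM with PBS and 9.09 ± 0.466 with HDM under control siRNA, and at 7.66 and 11.7 ± 1.03 under LY96 siRNA (SD, n = 3 each). It differed by log2 0.31 ± 0.07 (SE) for HDM over both siRNAs (limma adjusted p = 0.0197) and by 0.32 ± 0.07 for LY96 against control siRNA under HDM (limma adjusted p = 0.0123). Both GPX8 calls were lost in an additive model (adjusted p = 0.106 and 0.126), and the HDM call without the low-value filter (adjusted p = 0.0692). The peroxiredoxins PRDX2, PRDX4 and PRDX6 and the copper chaperone of SOD1, CCS, did not pass in either comparison, with HDM differences of log2 0.06, 0.18, 0.02 and 0.04.

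The list of thioredoxin, glutaredoxin and reductase genes had 17 tested genes. It also held GSR, TXNIP, SESN1, SESN2 and SESN3, so its counts are not those of the thioredoxin genes alone. With HDM over both siRNAs 1 rose and 1 fell (median log2 0.01), and with LY96 siRNA under HDM 1 rose and 4 fell (median -0.10, beside -0.02 for all genes). The list held 2 falls without LY96 siRNA HDM replicate 1 or 2 or control siRNA HDM replicate 2 or 3, and without the last of these 1 of the 2 was a gene outside the original 4. TXNRD1, the cytosolic thioredoxin reductase, fell with HDM from 54.1 FPKM to 44.0 ± 0.980 under control siRNA and from 41.1 to 34.3 ± 0.488 under LY96 siRNA (SD, n = 3 each, log2 -0.27 ± 0.03 SE, limma adjusted p = 0.00107). It was also lower with LY96 than with control siRNA under HDM (log2 -0.35 ± 0.03 SE, limma adjusted p = 3.88e-04), with no overlap between the groups. SESN2, which encodes the stress protein sestrin 2, was at 5.73 ± 0.482 FPKM with HDM under control siRNA and 12.05 ± 1.78 under LY96 siRNA (SD, n = 3 each, log2 0.95 ± 0.10 SE, limma adjusted p = 8.88e-04, and 0.0754 in an additive model). Its HDM call (log2 0.47, adjusted p = 0.0209) was lost without control siRNA HDM replicate 1 (0.0503) or 2 (0.0512), in an additive model (0.357) and without the low-value filter (0.0743). The thioredoxin gene TXN was lower with LY96 siRNA under HDM by log2 -0.20 ± 0.04 (SE, limma adjusted p = 0.0146), and that call was lost without control siRNA HDM replicate 2 (0.0571) or 3 (0.0523) and in limma without trend and robust moderation (0.0507). The remaining falls with LY96 siRNA were TXNRD3 (log2 -0.36, adjusted p = 0.0190) and the glutaredoxin gene GLRX (-0.20, adjusted p = 0.0337), each of which did not pass without certain libraries. TXNRD3 lost it without LY96 siRNA HDM replicate 1 or 2 and without any 1 of the control siRNA HDM libraries (highest adjusted p = 0.0638), and GLRX without any 1 LY96 siRNA HDM library, without control siRNA HDM replicate 3, in limma without trend and robust moderation and without the low-value filter (highest 0.0959).

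Glutathione synthesis and turnover had 10 tested genes, of which 4 rose and 1 fell with HDM over both siRNAs (median log2 0.10) and 4 rose and 0 fell with LY96 siRNA under HDM (median 0.12). SLC7A11, the cystine importer that supplies glutathione synthesis, was at 0.883 FPKM with PBS and 1.12 ± 0.112 with HDM under control siRNA, and at 0.949 and 6.46 ± 0.690 under LY96 siRNA (SD, n = 3 each). Its siRNA difference under HDM was log2 1.81 ± 0.08 (SE, limma adjusted p = 2.04e-05), with no overlap between the groups. SLC3A2, its partner chain, was at 88.9 ± 0.711 and 138 ± 14.0 FPKM with HDM under control and LY96 siRNA (SD, n = 3 each, log2 0.62 ± 0.06 SE, limma adjusted p = 9.01e-04). CHAC1, which breaks glutathione down, was at 2.26 ± 0.606 and 19.3 ± 2.65 FPKM in the same groups (SD, n = 3 each, log2 2.64 ± 0.15 SE, limma adjusted p = 2.56e-04). GGT5, which cleaves glutathione conjugates, also rose with HDM (log2 0.54 ± 0.04 SE, limma adjusted p = 1.34e-04) and was higher with LY96 siRNA under HDM (log2 0.23, adjusted p = 0.0104). GCLC, the catalytic subunit of the first step of glutathione synthesis, fell with HDM by log2 -0.25 ± 0.05 (SE, limma adjusted p = 0.0160). The HDM rises of SLC7A11 (log2 1.05) and SLC3A2 (0.39) over both siRNAs were lost in an additive model (adjusted p = 0.178 and 0.157), and with control siRNA alone their HDM differences were 0.17 ± 0.12 and 0.11 ± 0.09 (SE).

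Among 8 tested metallothionein and iron storage genes, 2 rose and 1 fell with HDM over both siRNAs (median log2 0.02). MT2A, a metal-binding metallothionein, was at 277 FPKM with PBS and 367 ± 13.3 with HDM under control siRNA, and at 279.97 and 384 ± 17.6 under LY96 siRNA (SD, n = 3 each, log2 0.43 ± 0.04 SE, limma adjusted p = 2.53e-04). FTH1, the ferritin heavy chain, differed by log2 0.38 ± 0.03 (SE, limma adjusted p = 1.13e-04), and MT1X by -0.20 ± 0.02 (limma adjusted p = 0.00126). For LY96 against control siRNA under HDM 3 rose and 0 fell. These were HMOX1, haem oxygenase 1 (log2 0.38 ± 0.06 SE, limma adjusted p = 0.00376), the ferritin light chain gene FTL (0.26 ± 0.05, adjusted p = 0.00766) and FTH1 (0.16 ± 0.03, adjusted p = 0.00973). The FTH1 call was lost after quantile normalization (adjusted p = 0.351), in an additive model (0.0706) and in limma without trend and robust moderation (0.0518).

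SOD2 resides in the mitochondrial matrix. Of 22 genes of other mitochondrial proteins, all of the matrix but the inner-membrane carriers SLC25A37 and SLC25A28, 2 rose and 0 fell with HDM over both siRNAs (median log2 0.03), among them the chaperone gene HSPA9 (0.17 ± 0.03 SE, limma adjusted p = 0.00742). With LY96 siRNA under HDM 1 rose and 8 fell (median log2 -0.10, beside -0.02 for all genes). Among the falls, SUCLG1, a succinyl-CoA ligase subunit, was at log2 -0.21 (limma adjusted p = 0.00341) and POLG, the mitochondrial DNA polymerase, at -0.20 (limma adjusted p = 0.00712). The count of 8 falls was 5 without LY96 siRNA HDM replicate 1 or control siRNA HDM replicate 1 or 3, and 4 without control siRNA HDM replicate 2. The 1 rise, that of GLUD1, glutamate dehydrogenase (log2 0.14, limma adjusted p = 0.0245), did not pass without LY96 siRNA HDM replicate 1 or 2 or control siRNA HDM replicate 2 or 3. The other HDM rise, that of the protease gene LONP1, did not pass without LY96 siRNA HDM replicate 2 or 3 or control siRNA HDM replicate 1 or 2, in an additive model, in limma without trend and robust moderation or without the low-value filter (highest adjusted p = 0.106). In the siRNA comparison SOD2 was at log2 0.71.

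Of 15 NADPH supply genes, 2 rose and 0 fell with HDM over both siRNAs, and 2 rose and 1 fell with LY96 siRNA under HDM. The mitochondrial folate enzyme gene MTHFD2 was at 44.4 ± 1.35 and 89.0 ± 7.70 FPKM with HDM under control and LY96 siRNA (SD, n = 3 each, log2 0.98 ± 0.06 SE, limma adjusted p = 5.68e-05, and 0.0534 in an additive model). Its HDM difference over both siRNAs was log2 0.68 ± 0.06 (SE, limma adjusted p = 1.77e-04, and 0.163 in an additive model). The HDM difference of MTHFD2 was larger with LY96 siRNA by log2 1.01 ± 0.11 (SE), so that mean does not stand for control siRNA alone. The related gene ALDH1L2 was also higher with LY96 siRNA under HDM (log2 0.63 ± 0.12 SE, limma adjusted p = 0.00926). The other HDM rise, that of PGD, did not pass without any 1 of the HDM libraries, after median-ratio or quantile scaling or in limma without trend and robust moderation (highest adjusted p = 0.108). The fall with LY96 siRNA, that of IDH2, did not pass without LY96 siRNA HDM replicate 1 or 3, without control siRNA HDM replicate 2 or 3 or in limma without trend and robust moderation (highest adjusted p = 0.0664).

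Superoxide and peroxide producing oxidases had 8 tested genes, while 11, the NADPH oxidase genes NOX1, NOX4 and CYBB among them, were below the level tested. With HDM 2 rose and 0 fell, and with LY96 siRNA under HDM 1 rose and 2 fell. XDH, xanthine dehydrogenase, rose with HDM (log2 0.44 ± 0.08 SE, limma adjusted p = 0.0111), as did RAC2, an oxidase subunit gene (log2 0.30). The RAC2 call was absent without any 1 of the control siRNA HDM libraries, without LY96 siRNA HDM replicate 3, in an additive model, in limma without trend and robust moderation and without the low-value filter (highest adjusted p = 0.123). DUOX1, a peroxide-releasing oxidase of airway epithelium, was lower with LY96 siRNA under HDM (log2 -0.39 ± 0.08 SE, limma adjusted p = 0.0137), as was its maturation factor gene DUOXA1 (-0.36, adjusted p = 0.0357), while the aldehyde oxidase gene AOX1 was higher (0.24, adjusted p = 0.0445). The DUOXA1 call was absent in 7 alternatives, among them without replicate 1 or 3 of either siRNA (highest adjusted p = 0.101), and that of AOX1 in 8, among them without any 1 HDM library (highest 0.120).

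Of 14 glutathione transferases 1 rose with HDM, of 21 selenoprotein genes 1 rose and 1 fell, and of 16 peroxisomal genes 0 rose and 0 fell by limma (1 and 0 at an unadjusted p below 0.05). The transferase call, MGST1, did not pass without any 1 of the control siRNA HDM libraries, in limma without trend and robust moderation or without the low-value filter (highest adjusted p = 0.101). Of the selenoprotein calls, the rise of SELM was absent in 8 alternatives, among them without HDM replicate 1 or 3 of either siRNA (highest 0.120), and the fall of SEPW1 in 6, among them without control siRNA HDM replicate 2 or any 1 of the LY96 siRNA HDM libraries (highest 0.105). With LY96 siRNA under HDM 1 transferase gene fell, GSTK1 (log2 -0.15, limma adjusted p = 0.0103). In the same comparison 1 selenoprotein gene rose, SELT (0.17, adjusted p = 0.0308), and 2 fell, SEP15 (-0.12, adjusted p = 0.0305) and SEPN1 (-0.11, adjusted p = 0.0362), and 1 peroxisomal gene rose, PEX5 (0.16, adjusted p = 0.0466). The calls of SEP15, SEPN1 and PEX5 were absent without any 1 HDM library (highest adjusted p = 0.111, 0.0979 and 0.128 over all alternatives), and that of SELT without any 1 of them but control siRNA HDM replicate 2 (highest 0.0916). For HDM over both siRNAs the medians of these 3 lists were log2 0.01, 0.05 and 0.03, beside 0.01 for all genes.

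As reference lists for the known regulators, 19 of 21 tested NF-kB target and subunit genes other than SOD2 rose with HDM over both siRNAs (median log2 1.20) and 16 with LY96 siRNA under HDM (median 0.37), with 0 falls in either. CXCL1, a neutrophil chemokine, differed by log2 3.83 with HDM and 1.15 with LY96 siRNA, and NFKBIA, the NF-kB inhibitor, by 1.35 and 0.37. ICAM1, an adhesion molecule, differed by log2 1.13 with HDM and by 0.07 with LY96 siRNA, where it did not pass (limma adjusted p = 0.277). The HDM call of REL was lost in 8 alternatives (highest limma adjusted p = 0.0852). The siRNA call of CXCL2 was lost without control siRNA HDM replicate 3 (0.0727). Of 14 tested NRF2 targets 1 rose and 2 fell with HDM (median log2 -0.02), and 4 rose and 1 fell with LY96 siRNA under HDM (median 0.10), with a count of 2 rises without LY96 siRNA HDM replicate 2 or control siRNA HDM replicate 1. Of these rises, that of AKR1C3 was lost in 8 alternatives, among them without any 1 HDM library (highest limma adjusted p = 0.125). That of EPHX1 was lost without either of the 2 libraries just named (highest 0.0587). NQO1, a quinone reductase and common NRF2 marker, was at log2 -0.20 with HDM (limma adjusted p = 0.0803) and -0.02 with LY96 siRNA. These lists were drawn up with earlier results of these libraries known, and no test of a list as a whole was made. In every list, HDM over both siRNAs is the mean of the differences with each siRNA. A rise or fall there need not hold with control siRNA alone.

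**Figure D5:**
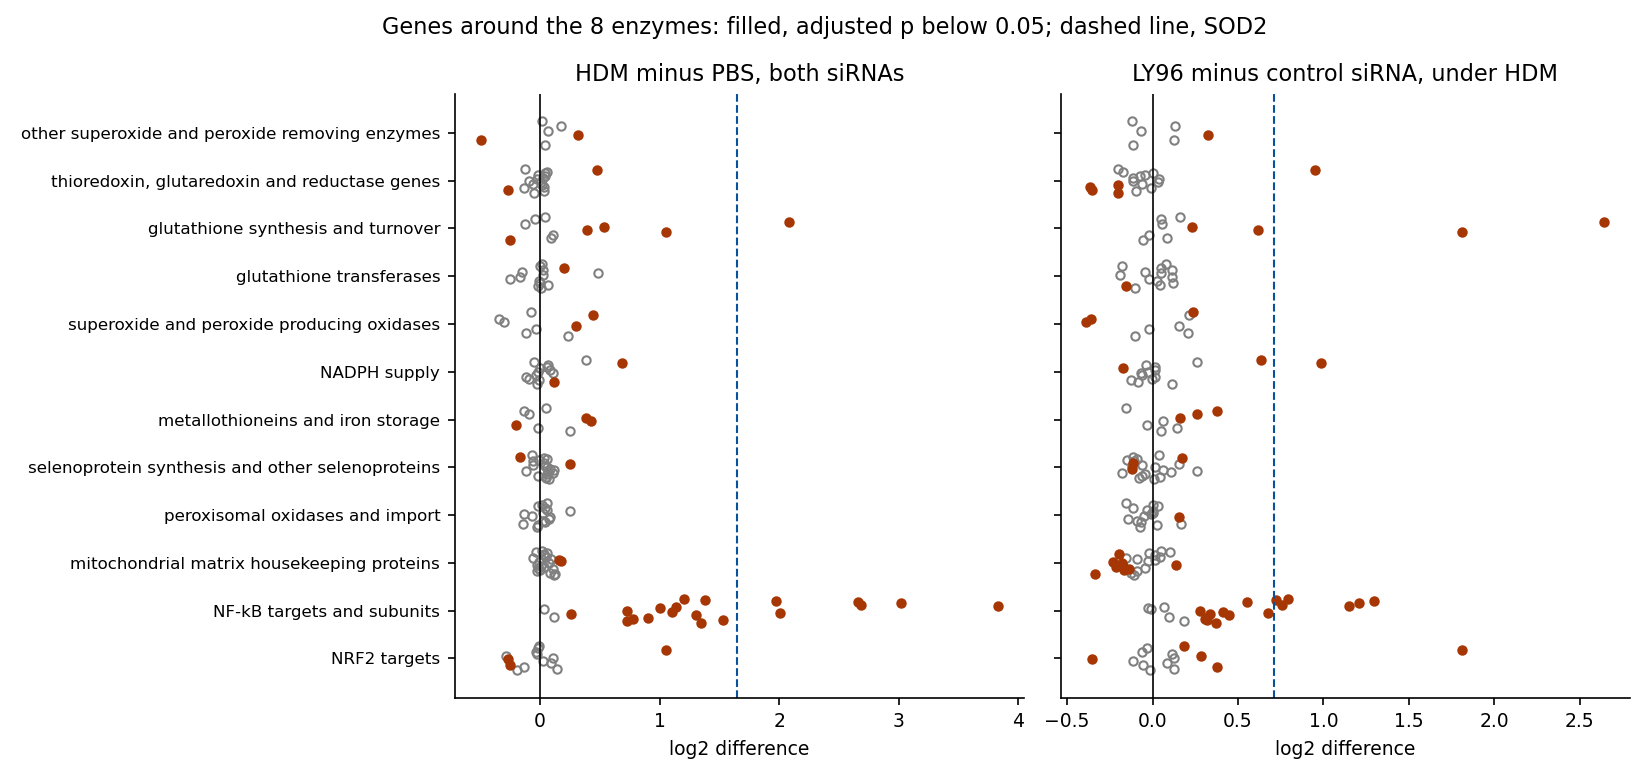
Differences of log2(FPKM + 1) (horizontal axes) for the tested genes of 12 lists (rows) for HDM over both siRNAs and for LY96 against control siRNA under HDM, filled where the limma adjusted p was below 0.05. The dashed line marks SOD2 at 1.65 and 0.71, with most genes of the antioxidant lists near 0 and most of the NF-kB list to the right of 0.

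Over all genes, 842 were higher and 1124 lower with LY96 siRNA under HDM, which became 1080 and 869 after median-ratio scaling. The siRNA count of 1966 was 1119 without control siRNA HDM replicate 2 and 1243 without replicate 3. The count for HDM with control siRNA, 288 genes, was 187 without control siRNA HDM replicate 2. The difference in HDM response was called for 7 genes, PTX3, SLC7A11, DDIT3, STC2, MTHFD2, ATF4 and SOD2.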

How the data were processed

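FPKM values per gene were made by the authors and deposited as 1 table per library. Per the submitters' processing notes, HISAT2 2.2.0 and the hg38 build were used, and the program that computed FPKM is not given in the sources used here. The unit was taken from the values, and whole reads could not be recovered from it. No column belonged to another series (0). Groups came from the labels. The test was limma 3.58.1 (R 4.3.3, trend and robust moderation) of log2(FPKM + 1) over genes averaging 1 FPKM or more, Benjamini-Hochberg adjusted over all of them, two-sided, threshold 0.05. The siRNA comparison used the 6 HDM libraries, and the others were contrasts of 4 group means over 8 libraries. A pseudocount of 1 understates differences of low genes. The members and gene lists were chosen with earlier results of these data known. Named were the 8 members, every called gene among the other peroxide-removing enzymes, up to 4 called and 2 uncalled genes of each other list, and the 8 nearest profiles. Not every gene under that rule is reported. On simulated data with 2-fold changes, recovery was 100% for the siRNA comparison (12537 genes, 8 false of 208 calls) and 90% for the difference in HDM response (12546 genes, 8 false of 198 calls). Every simulated library, the PBS ones included, was given the spread of the HDM libraries. Changes were placed only in genes with a mean log2(FPKM + 1) above 2. The simulation therefore cannot tell how the tests that use PBS libraries perform if PBS spread differs. No change below 2-fold was simulated, so recovery of smaller differences, such as those of the enzymes other than SOD2, is unknown. Alternatives were other pseudocounts, scalings, filters, models and leaving out each HDM library. Selenoprotein genes were matched through older symbols.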

Additional observations from a re-analysis of the deposited data

Results flagged for a closer look

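The HDM response was larger with LY96 siRNA than with control siRNA by a test of the difference itself for SOD2, at log2 0.61 (0.611 ± 0.0752 SE). All 3 LY96 siRNA HDM libraries exceeded their PBS library by more than any control siRNA HDM library exceeded its own. Since SOD2 was chosen from these data, no weight is put on that call. It was lost in limma without trend and robust moderation, without the low-value filter, without LY96 siRNA HDM replicate 1 or 3 and without any 1 of the 3 control siRNA HDM libraries, where the difference stayed between 0.58 and 0.63.

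The same test called SLC7A11, the cystine importer, at log2 1.76 (1.7621, limma adjusted p = 0.0384), and MTHFD2, the mitochondrial folate enzyme, at log2 1.01 (1.0125, limma adjusted p = 0.0430). The SLC7A11 call was lost in limma without trend and robust moderation (adjusted p = 0.129), without LY96 siRNA HDM replicate 1 (0.0566) and without control siRNA HDM replicate 1 (0.0681). The MTHFD2 call was lost in limma without trend and robust moderation (0.288), without the low-value filter (0.0880), without LY96 siRNA HDM replicate 3 (0.0679) and without control siRNA HDM replicate 1, 2 or 3 (0.133, 0.0689 and 0.0920). Each siRNA has 1 PBS library, so a shift of that library and a shift of the response cannot be told apart.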

How the results depend on the processing

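SOD2 kept its sign under every alternative run, from log2 0.56 in an additive model to 0.73 after quantile normalization for LY96 siRNA under HDM, and from 1.63 to 1.67 for HDM over both siRNAs. The additive value of 0.5566 was the SOD2 value that moved by more than the replicate spread. Leaving out 1 HDM library gave 1119 to 1369 genes called for LY96 siRNA under HDM, 187 to 329 for HDM with control siRNA and 0 to 33 for the difference in HDM response. Limma without trend and robust moderation called 180 genes for HDM with control siRNA and 0 for the difference in response, where 967 genes had an unadjusted p below 0.05. Without control siRNA HDM replicate 1 the count was also 0, with 904 genes at an unadjusted p below 0.05. The difference in response counted 20 genes without the low-value filter and 14 after quantile normalization. The cause was not tested. The signs of CAT, GPX4 and PRDX3 in the siRNA comparison changed with the setting. So did those of CAT, PRDX1, PRDX3 and PRDX5 for HDM with control siRNA, and of GPX4 and PRDX3 for HDM over both siRNAs. None of the other gene values changed sign where called (0 reversed). Read depth is unknown, so counting error could not be separated from other spread. The replicate numbers gave no sign of pairing among the HDM libraries, with correlations of 0.03, -0.02 and -0.02 between same-numbered deviations. Deviations from means of so few libraries cannot show weak pairing or how the cultures were handled. With the replicate block 1635 genes were called instead of 1966, with SOD2 at log2 0.71.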
